A study of Mus musculus with 15 samples.

Results

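The 8 genes described here encode ligands of the epidermal growth factor (EGF) family and receptors for growth factors: the ligands Areg, Ereg, Hbegf and Tgfa, the EGF-binding receptor Egfr, its relative Erbb3, the hepatocyte growth factor receptor Met and the fibroblast growth factor receptor Fgfr2. Chromatin accessibility at them was read from ATAC-seq, an assay in which a transposase cuts and tags open DNA, over 93217 regions of the mouse genome (build mm10). A region was given to a gene when its midpoint lay in the RefSeq gene body, or when that body was the nearest within 50 kb. That rule tied 126 of the 93217 regions to the 8 genes, 90 inside the bodies and 36 in the flanks. Of the 126 regions, 110 reached the mean level required for a test, and all 8 genes did so as sums over their regions.

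The cells were sorted from mouse liver, with 3 libraries in each of 5 groups and 15 in all. The groups were reprogrammed hepatocytes, biliary cells and hepatocytes from mice treated with DDC, and biliary cells and hepatocytes from untreated mice. DDC is 3,5-diethoxycarbonyl-1,4-dihydrocollidine, a diet additive used as a model of bile duct injury. Reprogrammed cells of untreated mice were not analysed here. The sources used here do not give strain, age, sex, genotype, length of treatment, sort markers, how reprogrammed hepatocytes were told apart from other cells, or whether libraries of a group came from separate animals, so a p-value below measures the spread between libraries, which may be technical.

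Accessibility was expressed as nuclear RPM, a region's read total scaled to 1000000 nuclear reads (those in regions outside the mitochondrial genome). Mitochondrial DNA took 9.24 ± 5.14% of region reads in reprogrammed hepatocytes, 9.86 ± 2.64% in DDC biliary cells, 34.1 ± 7.24% in DDC hepatocytes, 18.7 ± 4.33% in untreated biliary cells and 76.6 ± 11.7% in untreated hepatocytes (SD, n = 3 each). Nuclear depth was 4756891 to 9829886 reads per library in reprogrammed hepatocytes, 5151190 to 10395918 in DDC biliary cells, 1191409 to 2342643 in DDC hepatocytes, 2439831 to 4389653 in untreated biliary cells and 201705 to 605309 in untreated hepatocytes. A region of 10 nuclear RPM therefore rests on very few reads in untreated hepatocytes, and values there carry the largest counting error. With mitochondrial reads kept in the denominator, as deposited, the median gene differed on the log2 scale by 0.55 between reprogrammed and DDC hepatocytes, 0.06 between reprogrammed hepatocytes and DDC biliary cells, 0.125 between DDC and untreated biliary cells, 1.54 between DDC and untreated hepatocytes, 1.91 between untreated biliary cells and untreated hepatocytes and 0.50 between DDC biliary cells and DDC hepatocytes. On the nuclear scale these medians were 0.12, 0.05, -0.015, 0.21, 0.32 and 0.075. Accessibility summed over 8 hepatocyte marker genes was 590 to 1147 nuclear RPM in reprogrammed hepatocytes, 405 to 760 in DDC biliary cells, 2753 to 3900 in DDC hepatocytes, 633 to 1289 in untreated biliary cells and 4645 to 5890 in untreated hepatocytes. Over 8 biliary marker genes it was 832 to 959 in reprogrammed hepatocytes, 1225 to 1378 in DDC biliary cells, 261 to 352 in DDC hepatocytes, 1219 to 1335 in untreated biliary cells and 289 to 461 in untreated hepatocytes. The hepatocyte and biliary labels thus matched their markers, and the reprogrammed libraries lay near the biliary cells on the hepatocyte list and between hepatocytes and biliary cells on the biliary list. Markers of stellate cells and fibroblasts (6 genes) summed to 240 to 265 nuclear RPM in reprogrammed hepatocytes, 206 to 235 in DDC biliary cells, 126 to 175 in DDC hepatocytes, 183 to 210 in untreated biliary cells and 111 to 145 in untreated hepatocytes, so that they moved with the same groups as Hbegf below. Endothelial markers (6 genes) summed to 120 to 164 in reprogrammed hepatocytes, 103 to 131 in DDC biliary cells and 143 to 169 in DDC hepatocytes. In untreated mice their sum was 70.4 to 91.4 in biliary cells and 104 to 134 in hepatocytes. For macrophages, 3 of 6 markers had regions, and their sum was 57.8 to 85.2 in untreated hepatocytes and 92.4 to 164 in the other groups. Lymphocyte markers, 3 of 5 with regions, summed to 44.6 to 69.4 in untreated hepatocytes and 7.06 to 36.9 in the other groups, and neutrophil markers, also 3 of 5, to 16.5 to 38.3 in untreated hepatocytes and 6.42 to 24.0 in the others, so that both were high in the group where Egfr and Met were. Their part in the results was not tested.

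EGF family ligands are made as membrane proteins and are released by the protease Adam17 or act on neighbouring cells. They bind Egfr, which pairs with itself or with relatives such as Erbb2 and Erbb3 and signals through Ras and the MAP kinases. Erbb3 binds neuregulins and has little kinase activity of its own, so that it signals through its partners. Met binds hepatocyte growth factor, which is released by stellate and other non-parenchymal cells, and Met and Egfr are the principal mitogenic receptors of hepatocytes in regeneration. Fgfr2, whose ligands include Fgf7 and Fgf10, is known in bile duct and progenitor cells. Amphiregulin (Areg), epiregulin (Ereg), heparin-binding EGF-like growth factor (Hbegf) and transforming growth factor alpha (Tgfa) differ mainly in how they are induced and which receptor pairs they engage. Open chromatin marks promoters and enhancers that factors can reach, but it does not measure transcript or protein.

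The genes differed widely in how many regions they held. Areg had 1 region, Ereg 4, Hbegf 5, Tgfa 20, Egfr 38, Erbb3 4, Met 25 and Fgfr2 29, of which 1, 1, 4, 18, 34, 4, 24 and 24 in the same order were tested. Areg's region, 0.802 kb long at chr5:91139222-91140023, covers its start site. Hbegf's main region spans the whole gene and held 80% of its signal. RefSeq's promoter table (GRCm38.p6, the patched release of mm10) held an entry for 5 of the 8 genes. Start-site regions of those genes held 100% of the signal at Areg, 38.5% at Met, 24.8% at Tgfa, 24.0% at Fgfr2 and 19.8% at Egfr, so most of the signal at Met, Fgfr2 and Egfr came from other regions; Erbb3 has no entry, and its start-site share was not measured.

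The promoters of 4 genes whose start-site regions are described below are shown from 250 bases before to 50 after the RefSeq start, in the direction of transcription. They were chosen because Areg's sole region lies there and because the start-site regions of Egfr, Met and Fgfr2 are set against their distal regions. Capitals mark matches to AP-1 (TGANTCA), CRE (TGACGTCA), TEAD (GGAATG) or TATA box (TATAAA) letters on either strand. Areg lies at chr5:91139349-91139648 on the plus strand, Met at chr6:17463707-17464006 plus, Egfr at chr11:16751953-16752252 plus and Fgfr2 at chr7:130266759-130267058 minus.
Areg: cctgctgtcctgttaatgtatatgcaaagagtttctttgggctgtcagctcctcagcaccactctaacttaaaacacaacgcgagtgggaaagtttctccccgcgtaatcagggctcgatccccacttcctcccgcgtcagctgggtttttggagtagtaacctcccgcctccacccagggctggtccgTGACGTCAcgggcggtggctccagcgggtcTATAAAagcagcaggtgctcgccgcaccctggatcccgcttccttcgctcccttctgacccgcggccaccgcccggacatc
Met: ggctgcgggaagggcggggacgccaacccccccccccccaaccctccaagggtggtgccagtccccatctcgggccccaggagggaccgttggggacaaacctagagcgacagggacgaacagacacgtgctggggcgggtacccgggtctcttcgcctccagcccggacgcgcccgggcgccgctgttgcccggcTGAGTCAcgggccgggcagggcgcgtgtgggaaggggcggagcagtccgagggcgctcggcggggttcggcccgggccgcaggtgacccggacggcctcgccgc
Egfr: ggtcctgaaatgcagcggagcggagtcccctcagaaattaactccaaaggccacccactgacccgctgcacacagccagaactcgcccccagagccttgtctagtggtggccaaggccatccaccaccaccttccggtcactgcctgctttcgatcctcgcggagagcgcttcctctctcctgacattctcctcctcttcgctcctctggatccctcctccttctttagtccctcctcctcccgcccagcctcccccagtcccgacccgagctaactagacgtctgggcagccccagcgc
Fgfr2: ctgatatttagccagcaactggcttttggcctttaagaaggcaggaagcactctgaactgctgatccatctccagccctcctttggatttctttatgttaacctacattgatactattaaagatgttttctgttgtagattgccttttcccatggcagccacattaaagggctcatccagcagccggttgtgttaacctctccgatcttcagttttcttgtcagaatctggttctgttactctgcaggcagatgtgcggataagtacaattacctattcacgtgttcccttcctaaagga
The Areg promoter held a CRE match starting 61 bases before the start and a TATA box 31 bases before it. Met's held an AP-1 match 54 bases before the start, which the CRE letters do not overlap. Among 32851 RefSeq promoters of the same length, 1.79% held the CRE letters, 13.6% the TATA box, 7.81% the AP-1 letters and 14.7% the TEAD letters. The Egfr and Fgfr2 windows held none of these letters. Base composition also differed: GC content was 75.7% at Met, 62.3% at Egfr, 59.3% at Areg and 43.7% at Fgfr2, against a median of 52.7% over all promoters, and CpG pairs numbered 34, 15, 21 and 4 in the same order, against a median of 7. The GC box (GGGCGG) was present in 35.7% of all promoters; Met's had 3, Areg's 2, Egfr's 1 and Fgfr2's none.

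Hbegf accessibility was lower in both hepatocyte groups than in every other group. Per library it had 297, 228 and 248 nuclear RPM in reprogrammed hepatocytes, 295, 282 and 291 in DDC biliary cells, 119.5, 80.0 and 124 in DDC hepatocytes, 214, 239 and 248 in untreated biliary cells, and 69.4, 69.4 and 85.2 in untreated hepatocytes. All 9 reprogrammed and biliary libraries lay above all 6 hepatocyte libraries, without overlap. Reprogrammed hepatocytes exceeded DDC hepatocytes by 1.27 ± 0.16 on the log2(nuclear RPM + 1) scale (SE; limma, Benjamini-Hochberg adjusted p = 0.000274), and it alone of the 8 genes passed in that comparison, where 7.81% of all 16263 genes tested were higher and 6.44% lower. The count tests on recovered reads, edgeR and DESeq2, each called 3 of the 8 there. The contrast was as plain between biliary cells and hepatocytes, at 1.44 ± 0.16 with DDC (adjusted p = 2.86e-05) and 1.64 ± 0.16 without (adjusted p = 7.71e-06). DDC hepatocytes averaged 108 ± 24.3 nuclear RPM against 74.7 ± 9.10 in untreated hepatocytes, a difference of 0.51 ± 0.16 that missed the threshold (adjusted p = 0.0516) and passed without DDC hepatocyte library 2 (0.0134) or untreated hepatocyte library 3 (0.0263). In these bulk libraries a larger share of cells with an open region and a wider opening per cell cannot be told apart.

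**Figure D1:**
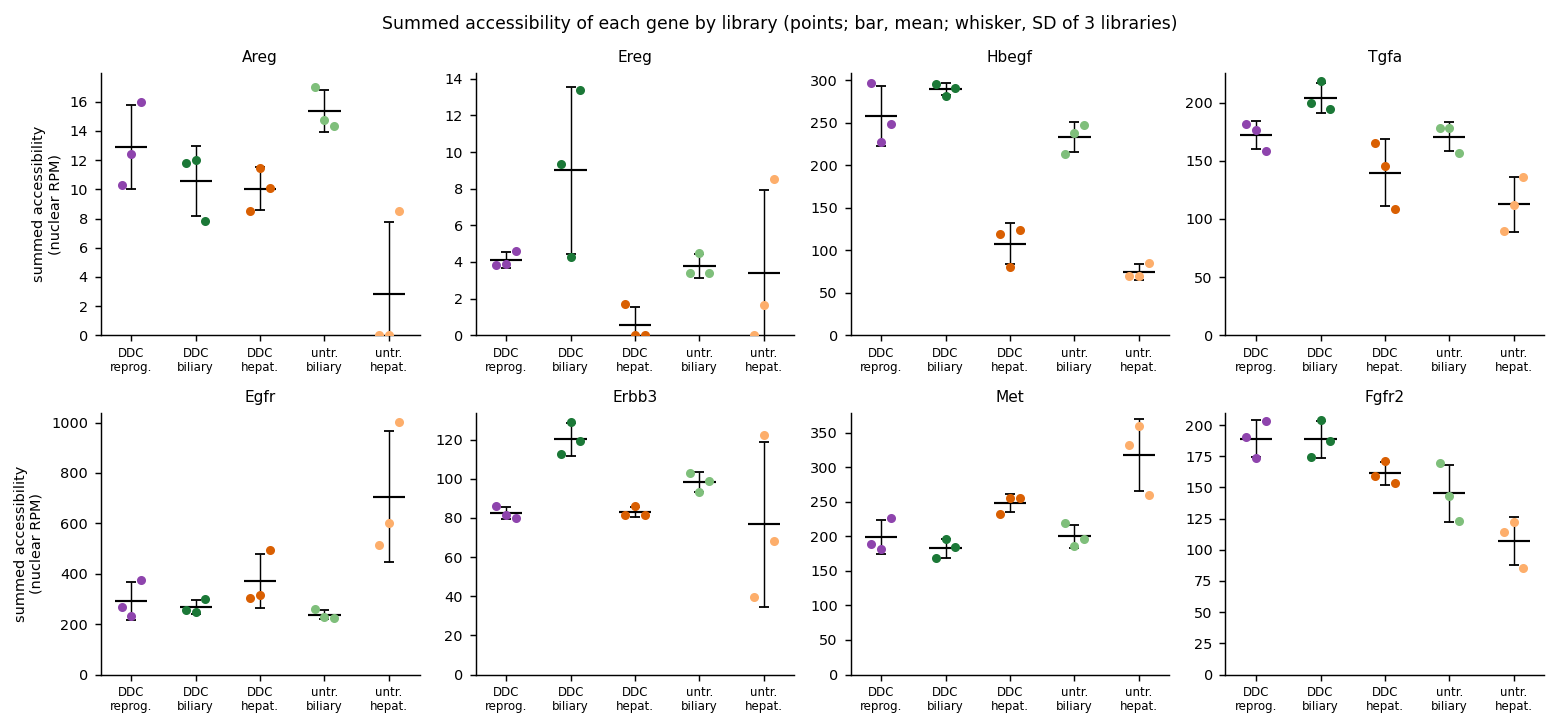
Accessibility summed over each gene's regions (nuclear RPM, linear axis from 0) in the 15 libraries, 1 panel per gene; points are libraries, bars group means and whiskers the SD of 3 libraries for reprogrammed hepatocytes, DDC biliary cells, DDC hepatocytes, untreated biliary cells and untreated hepatocytes from left to right. The hepatocyte libraries lie lowest at Hbegf, 69.4 to 124 nuclear RPM, and the untreated hepatocytes lie highest at Egfr, 516 to 1001 nuclear RPM.

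Of the 4 tested Hbegf regions, the main one and 3 in the flank on its lower-coordinate side, 3 were higher in reprogrammed than in DDC hepatocytes, against 8.14% of all 79075 regions tested. The main region, chr18:36499783-36517542, 17.8 kb long, averaged 181 nuclear RPM in reprogrammed hepatocytes, 209 in DDC biliary cells, 90.6 in DDC hepatocytes, 222 in untreated biliary cells and 67.9 in untreated hepatocytes. A 2.21 kb region 11.6 kb outside the gene, chr18:36492231-36494442, had 45.05, 38.0 and 43.3 nuclear RPM in reprogrammed hepatocytes, 67.9, 43.5 and 58.0 in DDC biliary cells, 1.71, 2.87 and 0 in DDC hepatocytes, 3.40, 7.38 and 9.57 in untreated biliary cells, and 0, 3.30 and 17.0 in untreated hepatocytes. It was thus high in the reprogrammed and biliary cells of DDC mice and low in DDC hepatocytes, with no overlap, and untreated biliary cells were low as well. The log2 difference was 4.30 ± 0.77 between reprogrammed and DDC hepatocytes (limma adjusted p = 0.00393) and 4.69 ± 0.77 between DDC biliary cells and DDC hepatocytes (adjusted p = 0.000674). Between DDC and untreated biliary cells it was 2.95 ± 0.77 (adjusted p = 0.046), and leaving out any 1 of the 6 biliary libraries took that p to between 0.0933 and 0.202, while a pseudocount of 0.5 took it to 0.124.

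A neighbouring Hbegf region of 1.33 kb, chr18:36497266-36498599 and 6.995 kb outside the gene, was higher with DDC in both cell types. It had 35.6, 25.3 and 29.4 nuclear RPM in reprogrammed hepatocytes, 23.9, 16.3 and 23.6 in DDC biliary cells, 19.6, 12.4 and 13.4 in DDC hepatocytes, 2.27, 4.51 and 2.73 in untreated biliary cells, and 0 in all 3 untreated hepatocyte libraries. The 9 libraries of DDC mice did not overlap the 6 of untreated mice. DDC biliary cells exceeded untreated ones by 2.43 ± 0.39 on the log2 scale (limma adjusted p = 0.00583, or 0.0565 without DDC biliary library 1 and 0.0513 without DDC biliary library 3). DDC hepatocytes were at least 5.44-fold higher than untreated hepatocytes, taking 3 reads over the untreated group as the floor, and reprogrammed hepatocytes at least 10.5-fold higher. Such floors, here and below, cover only the counting error of the group at 0 reads. The other group's pooled level is taken without error, so these folds are not strict lower bounds. The counting intervals given below cover counting error alone, and floors and intervals both take reads as independent. In untreated hepatocytes 75.6 to 82.4% of values of 1 to 20 reads were even. If both reads of a pair were counted, which the sources do not state, these folds are too high and the intervals too narrow. Within DDC mice the reprogrammed libraries lay above the hepatocyte ones without overlap; that difference of 0.96 ± 0.39 did not pass with limma (adjusted p = 0.114) but did with edgeR (0.0155) and DESeq2 (0.00231), and DDC biliary cells against DDC hepatocytes, at 0.47 ± 0.39 (0.412), passed with DESeq2 alone of the count tests (0.0361).

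Areg, an inducible ligand, had accessibility at its start site in every group except untreated hepatocytes, where 2 reads in 1 library were all that was counted. It had 10.3, 12.4 and 15.98 nuclear RPM in reprogrammed hepatocytes, 11.8, 12.04 and 7.82 in DDC biliary cells, 8.54, 11.5 and 10.1 in DDC hepatocytes, 17.0, 14.8 and 14.4 in untreated biliary cells, and 0, 0 and 8.52 in untreated hepatocytes. Untreated hepatocytes lay below the other groups except that their highest library exceeded the lowest DDC biliary library, and the 3 groups from DDC mice overlapped each other. DDC hepatocytes exceeded untreated hepatocytes by 2.37 ± 0.66 on the log2 scale (limma adjusted p = 0.0288) and untreated biliary cells did so by 2.95 ± 0.66 (adjusted p = 0.00272). Against the 2 untreated reads the pooled ratio was 5.19 for the 56 reads of DDC hepatocytes (95% exact counting interval 1.37 to 43.9) and 7.92 for the 144 reads of untreated biliary cells (2.15 to 66.0). The treatment call rested on few reads: without any 1 of the 3 DDC hepatocyte libraries or untreated hepatocyte libraries 1 or 2 its adjusted p was 0.0536 to 0.0874, and with both hepatocyte groups fitted alone it was 0.338. Among biliary cells the DDC libraries were all below the untreated ones, by 0.52 ± 0.66, which did not pass (adjusted p = 0.825). That SE was pooled over all 5 groups, with untreated hepatocytes at 0, 0 and 8.52 nuclear RPM among them. It does not measure the spread of the biliary libraries alone, so no conclusion is drawn from this test.

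Ereg, a ligand that lies beside Areg on chromosome 5, was the least accessible gene per kb of region in every group, at a level of 0.253 to 4.0003 nuclear RPM per kb. It had 3.84, 3.87 and 4.62 nuclear RPM in reprogrammed hepatocytes, 9.33, 4.27 and 13.4 in DDC biliary cells, 1.71, 0 and 0 in DDC hepatocytes, 3.40, 4.51 and 3.42 in untreated biliary cells, and 0, 1.65 and 8.52 in untreated hepatocytes. DDC hepatocytes lay below reprogrammed and DDC biliary cells without overlap, while untreated hepatocytes, on 0 to 2 reads, overlapped every other group. Ereg was 2.73 ± 0.68 higher in DDC biliary cells than in DDC hepatocytes on the log2 scale (limma adjusted p = 0.00783). DDC hepatocytes held 4 reads in library 1 and 0 in libraries 2 and 3, so this fitted size depends on the pseudocount. The sum also includes 2 flanking regions, 12.9 and 16.7 kb outside the gene. The reprogrammed cells exceeded DDC hepatocytes by 1.87 ± 0.68, which did not pass with limma (adjusted p = 0.0788) but did in the count tests on recovered reads (edgeR adjusted p = 0.0249, DESeq2 adjusted p = 0.0163).

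Tgfa differed less between groups than Hbegf. It had 181, 177 and 158 nuclear RPM in reprogrammed hepatocytes, 199, 219 and 194 in DDC biliary cells, 165, 146 and 108 in DDC hepatocytes, 178, 178 and 156 in untreated biliary cells, and 89.2, 112 and 136 in untreated hepatocytes. DDC biliary cells were the highest group and did not overlap any other, and the 2 hepatocyte groups overlapped each other. Tgfa passed between DDC biliary cells and DDC hepatocytes, at 0.56 ± 0.17 on the log2 scale (limma adjusted p = 0.0229), and between untreated biliary cells and untreated hepatocytes, at 0.62 ± 0.17 (adjusted p = 0.00973). With DDC the call was lost without any 1 of the DDC biliary libraries or without DDC hepatocyte library 3 (adjusted p = 0.052 to 0.106).

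Of the 18 tested Tgfa regions, 3 were higher and 3 lower in DDC biliary cells than in DDC hepatocytes, 1 higher and 2 lower in reprogrammed than in DDC hepatocytes, 4 higher and 0 lower in DDC than in untreated hepatocytes, and 5 higher and 1 lower in untreated biliary cells than in untreated hepatocytes. Over all regions the shares higher and lower in these comparisons were 16.4% and 12.1%, 8.14% and 6.06%, 9.94% and 2.2%, and 22.1% and 10.9%. The start-site region, chr6:86194713-86196388, averaged 44.4 nuclear RPM in reprogrammed hepatocytes, 48.4 in DDC biliary cells, 30.2 in DDC hepatocytes, 44.8 in untreated biliary cells and 30.7 in untreated hepatocytes, and did not pass in any comparison with limma. A region 43.3 kb beyond the gene body, chr6:86318606-86319533, averaged 22.5 in reprogrammed hepatocytes, 23.5 in DDC biliary cells, 9.35 in DDC hepatocytes and 15.97 in untreated biliary cells, with 0 reads in all 3 untreated hepatocyte libraries. Against the floor of 3 reads over the untreated hepatocyte group it was at least 3.46-fold higher in DDC hepatocytes and at least 5.53-fold higher in untreated biliary cells. A region 14.5 kb upstream of the start, chr6:86180196-86181315, likewise had no reads in untreated hepatocytes and was at least 2.47-fold higher in DDC hepatocytes and at least 3.41-fold higher in untreated biliary cells.

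**Figure D2:**
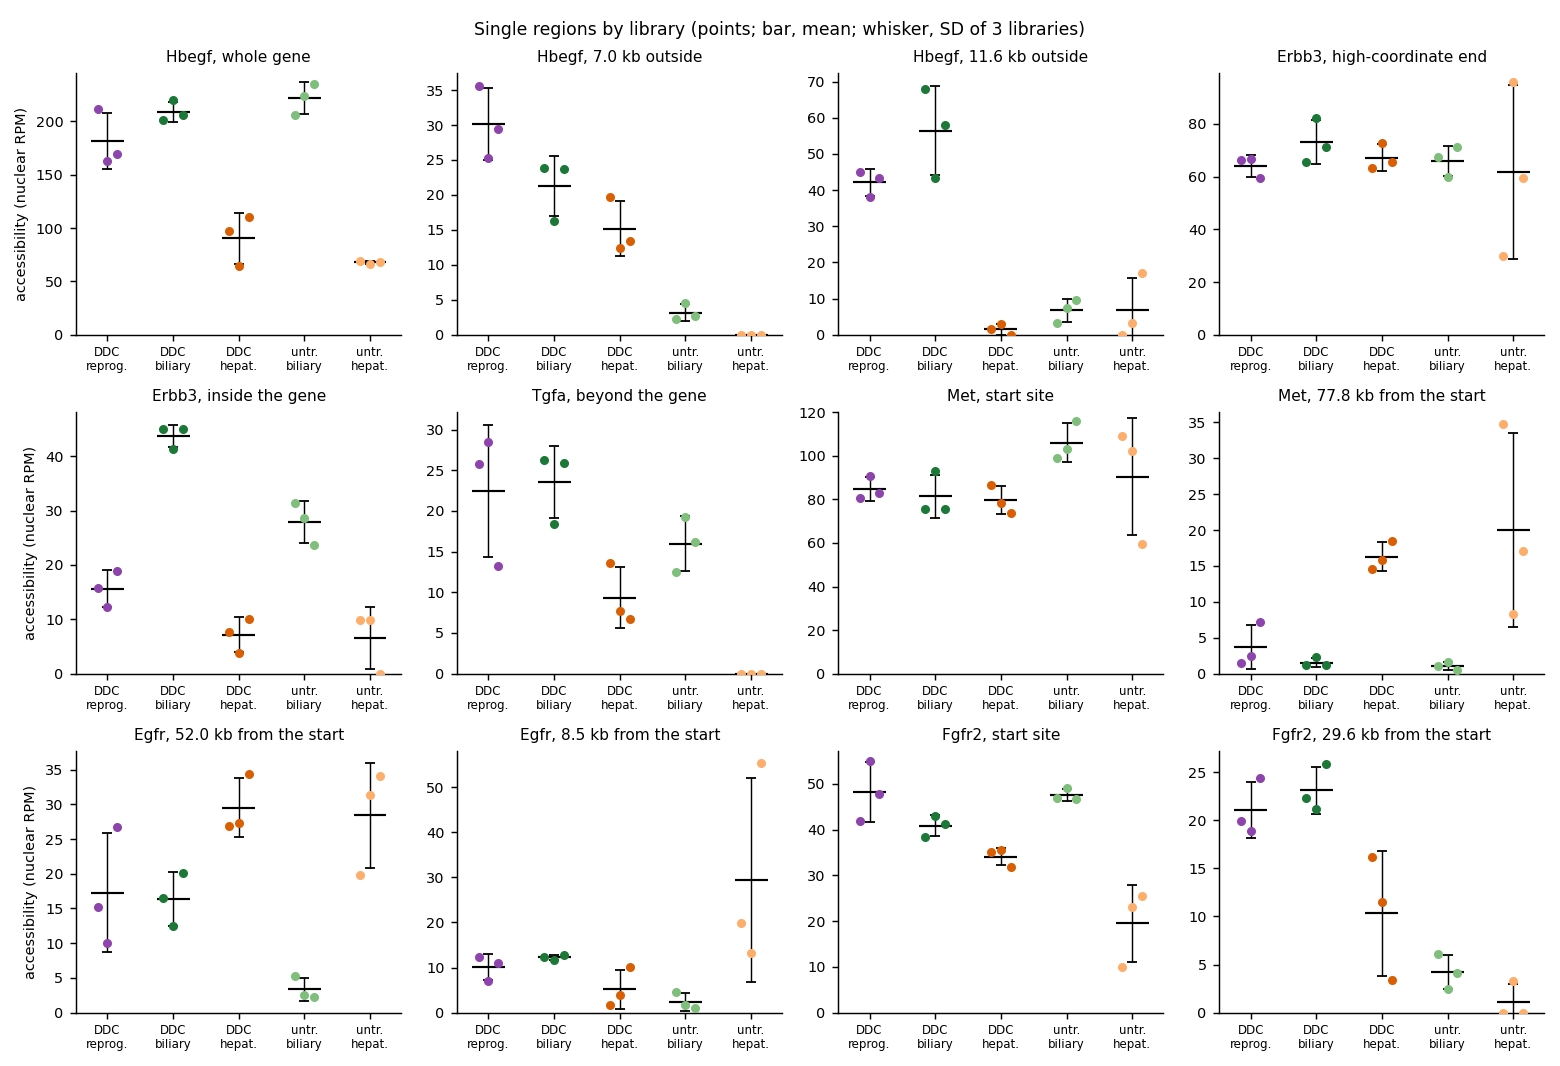
Accessibility (nuclear RPM, linear axis) of 12 regions at 6 of the genes in each library; points are libraries, bars group means and whiskers the SD of 3 libraries, with the groups in the same left-to-right order as for the summed levels. The flanking Hbegf region 11.6 kb outside the gene is at 38.0 to 67.9 nuclear RPM in reprogrammed and DDC biliary cells and at 0 to 2.87 in DDC hepatocytes.

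Egfr was highest in untreated hepatocytes, the group that was lowest at Hbegf and Tgfa. It had 267, 234 and 377 nuclear RPM in reprogrammed hepatocytes, 257, 247 and 299 in DDC biliary cells, 304, 317 and 495 in DDC hepatocytes, 259, 230 and 224 in untreated biliary cells, and 516, 603 and 1001 in untreated hepatocytes. The 3 untreated hepatocyte libraries lay above all 12 others, and the highest library of each hepatocyte group stood well above its fellows. Egfr was lower in untreated biliary cells than in untreated hepatocytes by 1.51 ± 0.24 on the log2 scale (SE; limma adjusted p = 0.0002), a direction that turns to 0.39 higher when mitochondrial reads stay in the denominator. Likewise it was lower in DDC than in untreated hepatocytes by 0.90 ± 0.24 (adjusted p = 0.0223), which turns to 0.69 higher on that deposited scale. Relative to the median gene of the deposited scale, Egfr stood at -1.52 and -0.85 in these comparisons. The treatment call was lost without DDC hepatocyte library 1 (adjusted p = 0.103) or 2 (0.0865) or untreated hepatocyte library 3 (0.0522), and with both hepatocyte groups fitted alone (0.238). Reprogrammed and DDC hepatocytes overlapped at Egfr, with a difference of -0.34 ± 0.24 (adjusted p = 0.394).

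The lower level of Egfr in biliary cells was spread over the gene: 13 of 34 tested regions were lower and 0 higher in untreated biliary cells than in untreated hepatocytes, against 10.9% lower and 22.1% higher over all regions, with 2 of the 13 turning higher on the deposited scale. Between DDC biliary cells and DDC hepatocytes 6 were lower and 0 higher, against 12.1% and 16.4%, and none of the 6 turned. The one-sided count held on the nuclear scale only. As deposited, 5 Egfr regions passed lower and 7 higher between the untreated cell types, and 4 lower and 6 higher between the DDC cell types. The start-site region, chr11:16751126-16756016, averaged 66.0 nuclear RPM in reprogrammed hepatocytes, 55.1 in DDC biliary cells, 64.3 in DDC hepatocytes, 56.5 in untreated biliary cells and 128 in untreated hepatocytes. It was lower in DDC than in untreated hepatocytes by 0.92 ± 0.25 (limma adjusted p = 0.0262), turning to 0.65 higher on the deposited scale. A region 9.85 kb upstream, chr11:16742036-16742675, averaged 1.03 nuclear RPM in reprogrammed hepatocytes, 0.84 in DDC biliary cells, 7.44 in DDC hepatocytes, 2.87 in untreated biliary cells and 21.8 in untreated hepatocytes. It was near 0 in the reprogrammed and biliary cells of DDC mice and present in both hepatocyte groups.

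Within the Egfr body the pattern differed by region. A region 8.45 kb past the start, chr11:16759846-16761464, averaged 10.1 nuclear RPM in reprogrammed hepatocytes, 12.2 in DDC biliary cells, 5.20 in DDC hepatocytes, 2.36 in untreated biliary cells and 29.5 in untreated hepatocytes. A region 52.0 kb past the start, chr11:16803779-16804658, had 15.2, 9.97 and 26.7 in reprogrammed hepatocytes, 16.4, 12.4 and 20.1 in DDC biliary cells, 26.9, 27.3 and 34.4 in DDC hepatocytes, 5.29, 2.46 and 2.28 in untreated biliary cells, and 19.8, 31.4 and 34.1 in untreated hepatocytes. Untreated biliary cells stood below every other group there. DDC biliary cells exceeded untreated ones by 2.04 ± 0.41 on the log2 scale (limma adjusted p = 0.0141), and the adjusted p was 0.0619 to 0.0993 without DDC biliary library 1 or 3 or untreated biliary library 2 or 3.

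**Figure D3:**
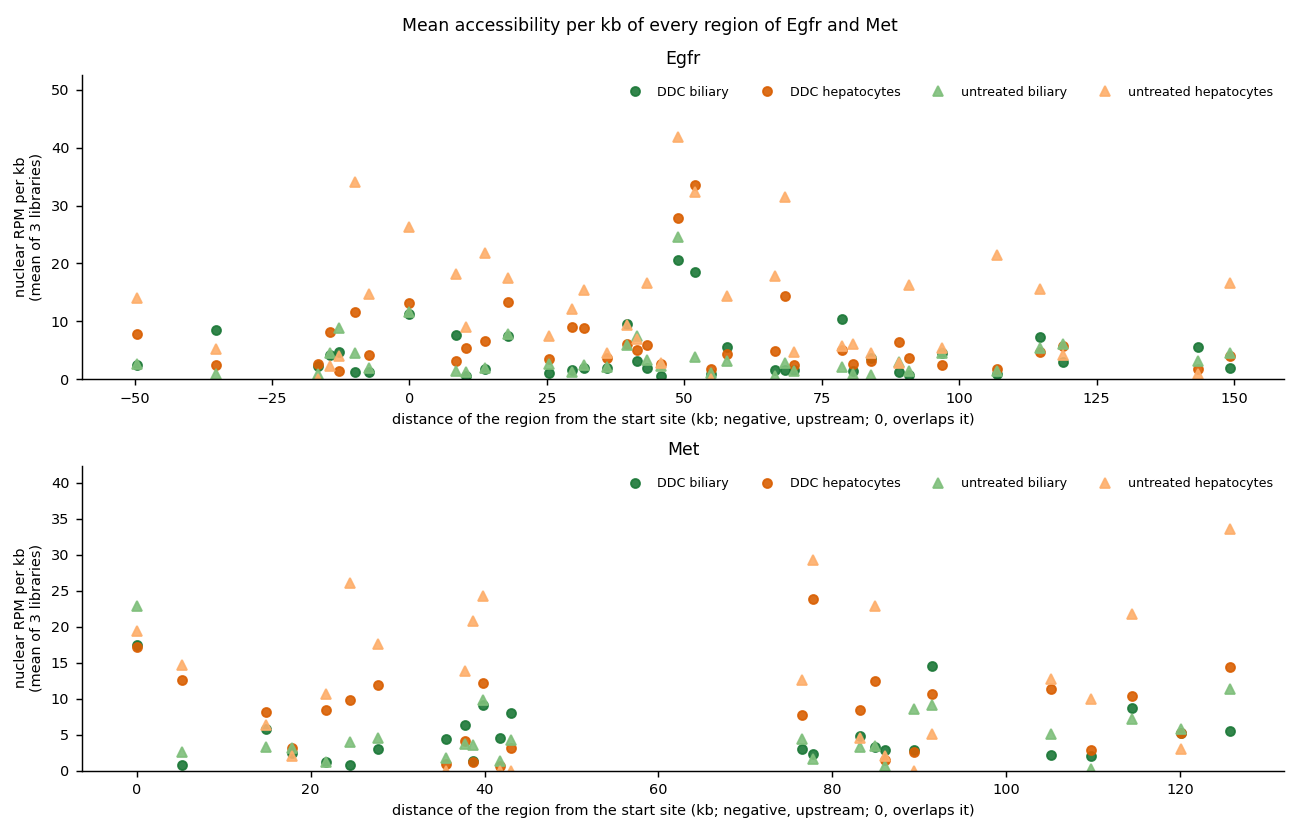
Mean accessibility per kb of region (nuclear RPM per kb) at Egfr and Met against the distance of each region from the start site (kb) in 4 groups; each point is 1 region, and each value is the mean of 3 libraries. Egfr regions of untreated hepatocytes lie above those of biliary cells over much of the gene, and the Met region at 77.8 kb is the one described in the text.

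Erbb3 accessibility was highest in DDC biliary cells and next in untreated biliary cells. It had 86.2, 81.5 and 79.9 nuclear RPM in reprogrammed hepatocytes, 112, 129 and 119 in DDC biliary cells, 81.5, 86.2 and 81.4 in DDC hepatocytes, 103, 93.0 and 98.6 in untreated biliary cells, and 39.7, 122 and 68.1 in untreated hepatocytes. Both biliary groups lay above the reprogrammed and DDC hepatocyte libraries without overlap, while untreated hepatocytes, on 8 to 74 reads, spanned nearly the whole range. The gene sum passed in no comparison with limma. Between reprogrammed hepatocytes and DDC biliary cells it differed by -0.54 ± 0.27 (limma adjusted p = 0.982), against an adjusted p of 0.00133 with DESeq2 and 0.00862 with those groups fitted alone.

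The largest difference at Erbb3 between biliary cells and hepatocytes, in nuclear RPM, lay in a region inside the gene, chr10:128583408-128585056. It had 15.8, 12.2 and 18.9 nuclear RPM in reprogrammed hepatocytes, 44.9, 41.3 and 44.95 in DDC biliary cells, 7.68, 3.83 and 10.1 in DDC hepatocytes, 31.4, 28.7 and 23.7 in untreated biliary cells, and 9.92, 9.91 and 0 in untreated hepatocytes. Biliary cells were highest, reprogrammed hepatocytes stood between, and hepatocytes were lowest, with no overlap between these 3 sets. DDC biliary cells exceeded DDC hepatocytes by 2.53 ± 0.68 (limma adjusted p = 0.0115, or 0.0575 without DDC hepatocyte library 2). Reprogrammed hepatocytes differed from DDC biliary cells by -1.45, with an adjusted p of 0.909 in limma over all 15 libraries, 0.00162 in edgeR, 1.92e-09 in DESeq2 and 0.000206 in limma with those groups fitted alone. The gene's largest region, chr10:128586383-128590785, 4.40 kb long and with 72.0% of the signal, averaged 64.0 in reprogrammed hepatocytes, 73.0 in DDC biliary cells, 67.1 in DDC hepatocytes, 66.1 in untreated biliary cells and 61.7 in untreated hepatocytes.

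Met, the receptor for hepatocyte growth factor, was highest in untreated hepatocytes as Egfr was, but within a narrower range. It had 188, 182 and 227 nuclear RPM in reprogrammed hepatocytes, 168, 195 and 185 in DDC biliary cells, 233, 256 and 256 in DDC hepatocytes, 219, 186 and 196 in untreated biliary cells, and 332, 360 and 260 in untreated hepatocytes. All 6 hepatocyte libraries lay above the 9 others. Met was lower in biliary cells than in hepatocytes by 0.65 ± 0.14 on the log2 scale without treatment (limma adjusted p = 0.00182) and by 0.44 ± 0.14 with DDC (adjusted p = 0.0285), and on the deposited scale these turn to 1.24 and 0.015 higher, or -0.67 and -0.49 relative to the median gene. With DDC the call was lost without DDC biliary library 1 (adjusted p = 0.124) or 3 (0.0742) or DDC hepatocyte library 2 (0.0869) or 3 (0.0704). Reprogrammed hepatocytes differed from DDC hepatocytes by -0.32 ± 0.14, which did not pass (adjusted p = 0.136).

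Met's start-site region did not follow the gene sum. The region chr6:17462284-17466927, over the GC-rich promoter printed above, averaged 84.8 nuclear RPM in reprogrammed hepatocytes, 81.3 in DDC biliary cells, 79.7 in DDC hepatocytes, 106 in untreated biliary cells and 90.4 in untreated hepatocytes, and passed in no comparison with limma. A region 77.8 kb into the gene, chr6:17541442-17542124, had 1.53, 2.44 and 7.15 in reprogrammed hepatocytes, 1.15, 2.33 and 1.17 in DDC biliary cells, 14.5, 15.8 and 18.5 in DDC hepatocytes, 1.13, 1.64 and 0.456 in untreated biliary cells, and 34.7, 8.26 and 17.03 in untreated hepatocytes. All 6 hepatocyte libraries lay above the 9 others. It was lower in reprogrammed than in DDC hepatocytes by 2.05 ± 0.56 (adjusted p = 0.0232), lower in DDC biliary cells than in DDC hepatocytes by 2.78 ± 0.56 (adjusted p = 0.00208) and lower in untreated biliary cells than in untreated hepatocytes by 3.17 (adjusted p = 0.000539). The call between reprogrammed and DDC hepatocytes was lost without DDC hepatocyte library 2 or 3 or reprogrammed library 1 or 2 (adjusted p = 0.0642 to 0.124).

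Fgfr2 accessibility was lowest in untreated hepatocytes. It had 191, 173 and 203 nuclear RPM in reprogrammed hepatocytes, 174, 204 and 187 in DDC biliary cells, 159, 171 and 154 in DDC hepatocytes, 169, 143 and 123 in untreated biliary cells, and 114, 122 and 85.2 in untreated hepatocytes. Reprogrammed and DDC biliary libraries all lay above those of DDC hepatocytes, and untreated hepatocytes lay below every other group. Fgfr2 passed between DDC and untreated hepatocytes, at 0.60 ± 0.15 on the log2 scale (limma adjusted p = 0.0197, or 0.0612 without DDC hepatocyte library 1 and 0.072 without library 2). It passed between untreated biliary cells and untreated hepatocytes at 0.44 ± 0.15 (adjusted p = 0.0329, or 0.0772 to 0.141 without untreated biliary library 1 or 2 or untreated hepatocyte library 3). With both hepatocyte groups fitted alone the treatment call was lost (adjusted p = 0.272).

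Of the 24 tested Fgfr2 regions, 5 were higher and 2 lower in reprogrammed than in DDC hepatocytes, against 8.14% and 6.06% of all regions. In DDC biliary cells 6 were higher and 3 lower than in DDC hepatocytes, against 16.4% and 12.1%. A region 29.6 kb from the start, chr7:130236492-130237871, averaged 21.1 nuclear RPM in reprogrammed hepatocytes, 23.1 in DDC biliary cells, 10.4 in DDC hepatocytes, 4.20 in untreated biliary cells and 1.10 in untreated hepatocytes. It was higher with DDC in biliary cells, by 2.27 ± 0.60 (limma adjusted p = 0.0482, and 0.0708 to 0.202 without any 1 of the 6 biliary libraries), and in hepatocytes, by 2.59 (adjusted p = 0.0108, or 0.0606 without DDC hepatocyte library 1), where 66 reads in DDC hepatocytes stood against 2 in untreated ones, a pooled ratio of 6.12 (95% exact counting interval 1.63 to 51.5). A region 43.0 kb upstream of the start, chr7:130309201-130310402, had 13.3, 12.4 and 13.2 in reprogrammed hepatocytes, 9.33, 12.2 and 11.8 in DDC biliary cells, 1.71, 0.958 and 1.68 in DDC hepatocytes, 2.64, 3.28 and 0.456 in untreated biliary cells, and 0, 0 and 4.26 in untreated hepatocytes. The 6 libraries of reprogrammed and DDC biliary cells lay above the 9 others. Reprogrammed hepatocytes exceeded DDC hepatocytes there by 2.53 ± 0.61 (adjusted p = 0.0136). This call was not followed singly through the alternative runs or with libraries left out, so its stability is not given. The start-site region, chr7:130262598-130267360, averaged 48.2 in reprogrammed hepatocytes, 40.9 in DDC biliary cells, 34.1 in DDC hepatocytes, 47.6 in untreated biliary cells and 19.5 in untreated hepatocytes.

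Counted over the 8 genes, the cell-type comparisons held most of the calls. Between DDC biliary cells and DDC hepatocytes 3 genes were higher (Ereg, Hbegf, Tgfa) and Met was lower, against 12.7% of all genes higher and 11.8% lower. Between untreated biliary cells and untreated hepatocytes 4 genes were higher (Areg, Hbegf, Tgfa, Fgfr2) and 2 lower (Egfr, Met), against 25.4% and 13.6% of all genes. Several of these calls were not stable. Between the untreated cell types 3 members passed with those groups fitted alone, and 2 after reads were thinned to equal depth. Between the DDC cell types 2 passed after thinning and 2 with regions in gene bodies only. Hbegf passed each time. In DDC hepatocytes Areg and Fgfr2 were higher and Egfr lower than in untreated ones, against 9.65% and 3.92%. Between reprogrammed hepatocytes and DDC biliary cells no member passed, and only 0.0184% of all genes were higher and 0.00615% lower; limma gave 0 members at an unadjusted p under 0.05, edgeR called 0 and DESeq2 called 1. Over all genes edgeR called 470, DESeq2 873 and limma with those groups fitted alone 1169. For DDC against untreated biliary cells 0 members passed with limma, against 2.23% of genes higher and 1.07% lower, with 1 at an unadjusted p under 0.05, 0 called by edgeR and 1 by DESeq2. The effect of DDC in biliary cells minus that in hepatocytes passed for 0 members, against 1.04% of genes higher and 1.73% lower, with 2 at an unadjusted p under 0.05 and 1 called by edgeR and by DESeq2. The nearest were Egfr at 1.07 ± 0.33 (adjusted p = 0.0917) and Areg at -2.89 ± 0.93 (adjusted p = 0.103). Comparisons that share a group of libraries are not independent of each other.

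Of the 110 tested regions, 9 were higher and 7 lower in reprogrammed than in DDC hepatocytes, against 8.14% higher and 6.06% lower over all 79075 regions tested. Between DDC biliary cells and DDC hepatocytes 15 were higher and 16 lower, against 16.4% and 12.1%. Between untreated biliary cells and untreated hepatocytes 20 were higher and 21 lower, against 22.1% and 10.9%. DDC hepatocytes had 10 regions higher and 3 lower than untreated ones, against 9.94% and 2.2%, and DDC biliary cells 4 higher and 0 lower than untreated ones, against 2.92% and 0.545%. Those 4 were the flanking Hbegf regions at 11.6 and 6.995 kb, the Egfr region at 52.0 kb and the Fgfr2 region at 29.6 kb. Between reprogrammed hepatocytes and DDC biliary cells 0 of the 110 passed, as 0% of all regions did in either direction, with 2 at an unadjusted p under 0.05, 2 called by edgeR and 3 by DESeq2. The 0% holds for the fit over all 15 libraries. Over all regions edgeR called 2208, DESeq2 3635 and limma with those groups fitted alone 5711. The difference of the DDC effects passed for 1 region upward and 2 downward, against 0.554% and 1.8%. These counts lay near the shares over all regions except for the 21 lower regions between the untreated cell types, a difference that was not tested. Within genes, Egfr's 13 lower regions out of 34 between untreated cell types contrasted with Fgfr2, where 7 of 24 were higher and 1 lower, and with Met, where 3 of 24 were higher and 6 lower. On the deposited scale 5 regions passed lower and 7 higher at Egfr, 0 and 17 at Fgfr2, and 1 and 7 at Met.

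**Figure D4:**
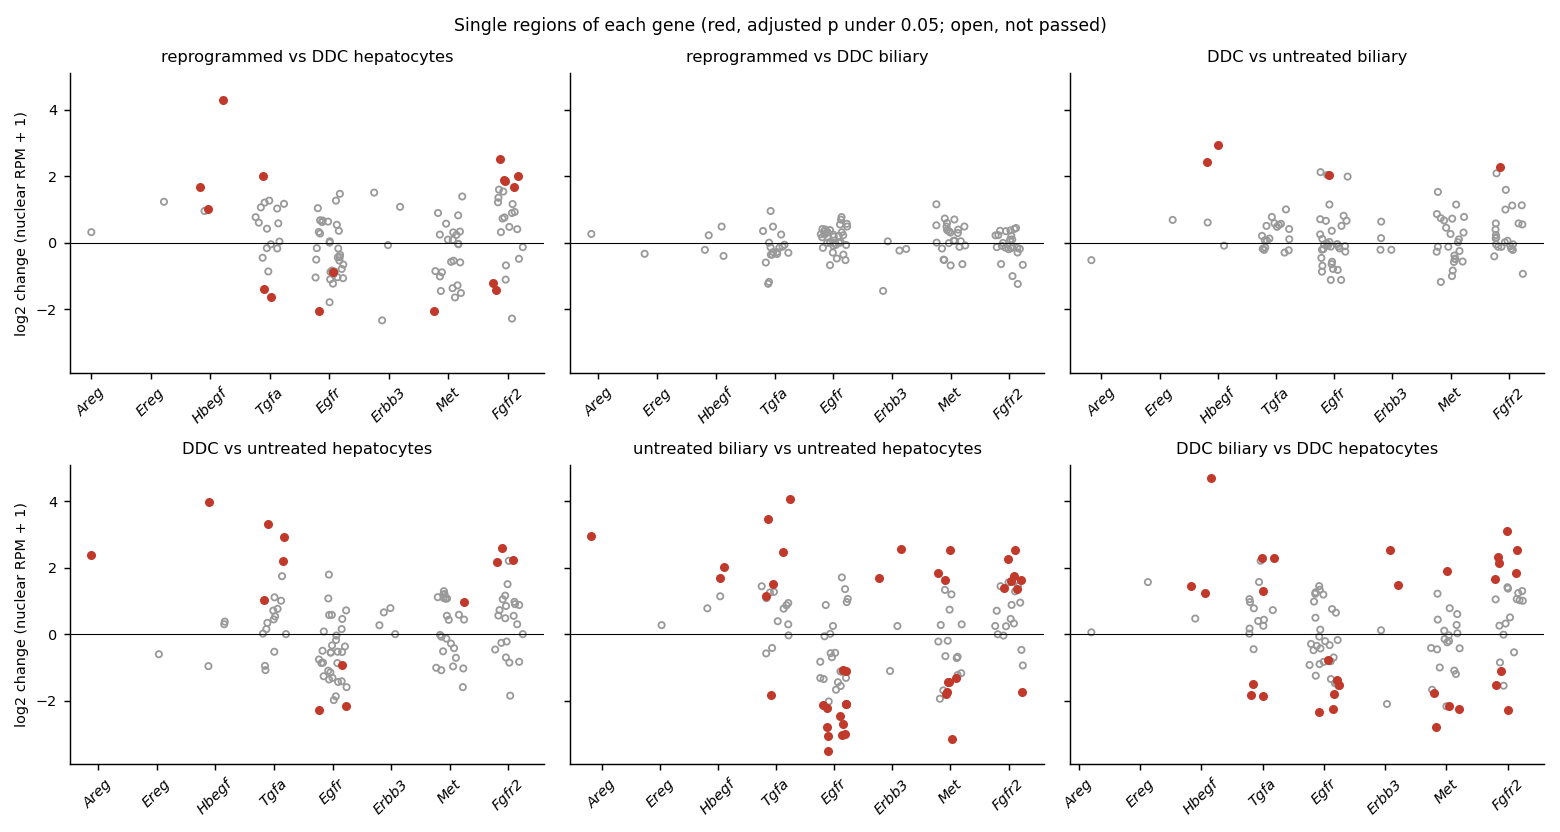
Difference of each tested region on the log2(nuclear RPM + 1) scale in 6 comparisons, with the genes along the horizontal axis; red points passed at an adjusted p under 0.05 in limma and open points did not. Between untreated biliary cells and untreated hepatocytes 20 points are red above 0 and 21 below, and between reprogrammed hepatocytes and DDC biliary cells none is red.

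Among 61 other genes of these pathways, in 8 lists, 59 had enough signal to test, and Fgf7 and Mst1 had no region. Between reprogrammed and DDC hepatocytes 8 of 59 were higher and 6 lower, against 7.81% and 6.44% of all genes, with a median of 0.20 on the log2 scale beside 0.12 over all genes. The receptors Fgfr1 and Igf1r were higher: Fgfr1, a receptor for fibroblast growth factors, averaged 170 ± 13.2 nuclear RPM in reprogrammed hepatocytes and 46.5 ± 7.74 in DDC hepatocytes (log2 difference 1.86 ± 0.22, limma adjusted p = 0.000165, n = 3 each). Igf1r, the insulin-like growth factor receptor, averaged 214 ± 15.8 in reprogrammed hepatocytes and 62.2 ± 13.0 in DDC hepatocytes (1.78, adjusted p = 0.000253). Among 12 feedback inhibitors, 4 were higher and 4 lower. Spry2, which restrains Ras signalling, averaged 138 ± 3.69 in reprogrammed hepatocytes and 50.2 ± 5.29 in DDC hepatocytes (1.45, adjusted p = 0.00404). Errfi1, an inhibitor that binds Egfr, averaged 345 ± 58.4 in reprogrammed hepatocytes and 841 ± 44.9 in DDC hepatocytes (-1.30, adjusted p = 0.000713). Dusp6, the phosphatase of Erk kinases, averaged 180 ± 14.2 in reprogrammed hepatocytes and 370 ± 62.1 in DDC hepatocytes (-1.03, adjusted p = 0.000611). On the deposited scale neither Errfi1 (adjusted p = 0.0855) nor Dusp6 (0.179) passed. Spint1, an inhibitor of the proteases that activate hepatocyte growth factor, averaged 59.0 ± 7.47 in reprogrammed hepatocytes and 20.9 ± 4.46 in DDC hepatocytes (1.46, adjusted p = 0.000642).

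The cell-type comparison gave the most pathway calls. Between untreated biliary cells and untreated hepatocytes 25 of 59 were higher and 9 lower, against 25.4% and 13.6% of all genes, with a median of 0.55 beside 0.32 over all genes. All 4 genes of ligand shedding passed upward: Adam17 and Adam10, the proteases that release EGF ligands, at 1.34 ± 0.39 and 0.87 ± 0.31, and Rhbdf1 and Rhbdf2, which bring Adam17 to the cell surface, at 0.85 ± 0.26 and 0.55 ± 0.17. Adam17 alone of the 4 passed without each library in turn. The Adam10 call was lost without any 1 of the untreated biliary libraries or untreated hepatocyte library 1 (limma adjusted p = 0.0652 to 0.136), with edgeR (0.136) and with DESeq2 (0.116). The Rhbdf2 call was lost without untreated biliary library 1 (0.082) or 2 (0.0519) or untreated hepatocyte library 2 (0.0575), with edgeR (0.0893) and with DESeq2 (0.0828), and the Rhbdf1 call without untreated biliary library 2 (0.0689) or untreated hepatocyte library 2 (0.0649). With the untreated groups fitted alone none of the 4 passed (0.103 to 0.177). Of 5 genes of the FGF list, 3 were lower, Klb, Fgf21 and Fgf1; Klb, the co-receptor of Fgf21, was at -1.62 ± 0.44 (adjusted p = 0.0089), and all 3 turn positive on the deposited scale. With DDC, 18 of 59 were higher in biliary cells than in hepatocytes and 10 lower, against 12.7% and 11.8% of all genes, with a median of 0.21 beside 0.075. Igf1r averaged 292 nuclear RPM in DDC biliary cells and 62.2 in DDC hepatocytes (2.23 ± 0.22, adjusted p = 1.08e-05), and Errfi1 averaged 324 in DDC biliary cells and 841 in DDC hepatocytes (-1.41 ± 0.20, adjusted p = 0.000118).

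With treatment, the lists moved in few members. In DDC hepatocytes 8 of 59 were higher than in untreated ones and 3 were lower, against 9.65% and 3.92% of all genes, with a median of 0.14 beside 0.21 over all genes; with both hepatocyte groups fitted alone 0 passed in either direction. Erbb4, the neuregulin receptor related to Erbb3, averaged 45.8 ± 11.9 nuclear RPM in DDC hepatocytes and 157 ± 17.9 in untreated hepatocytes (-1.78 ± 0.20, limma adjusted p = 0.000178, n = 3 each), a difference that shrank to -0.20 on the deposited scale (adjusted p = 0.529). Of 7 response genes of the MAP kinases 3 were higher. Egr1, an immediate early transcription factor, averaged 673 ± 57.2 in DDC hepatocytes and 383 ± 66.7 in untreated hepatocytes (0.83 ± 0.13, adjusted p = 0.00173). In DDC biliary cells 2 of 59 were higher than in untreated ones and 4 lower, against 2.23% and 1.07% of all genes, with a median of -0.125 beside -0.015 over all genes. Erbb4 again was lower, at 68.9 ± 17.0 in DDC biliary cells against 157 ± 18.0 in untreated biliary cells (-1.20 ± 0.20, adjusted p = 0.00684, or 0.0615 without DDC biliary library 1 and 0.0523 without library 3). Ier3, an early response gene, averaged 203 ± 26.3 in DDC biliary cells against 103 ± 10.2 in untreated biliary cells (0.97 ± 0.21, adjusted p = 0.0182, or 0.117 without DDC biliary library 1, 0.103 without library 3, 0.091 without untreated biliary library 2 and 0.0829 without library 3). Between reprogrammed hepatocytes and DDC biliary cells 0 of 59 passed with limma, with 2 higher and 3 lower at an unadjusted p under 0.05, 0 higher and 3 lower called by edgeR, and 1 higher and 5 lower called by DESeq2.

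**Figure D5:**
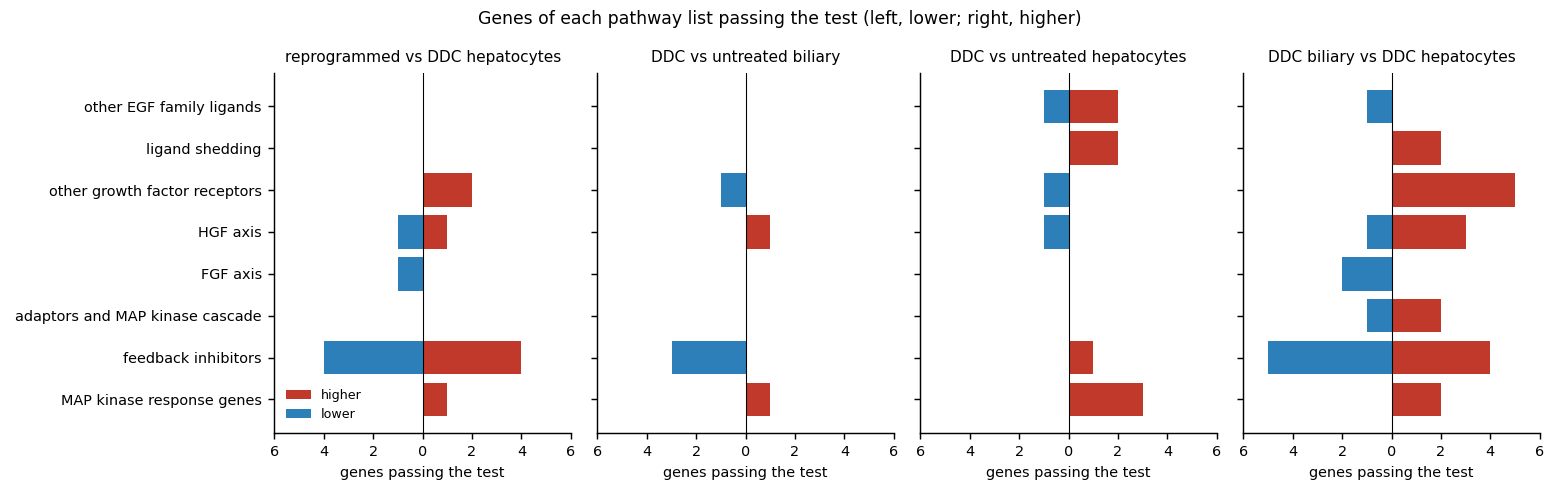
Number of genes in each of the 8 pathway lists that were higher or lower at an adjusted p under 0.05 (limma) in 4 comparisons; bars to the right count genes higher and bars to the left genes lower in the first-named group. Feedback inhibitors have 4 genes on each side between reprogrammed and DDC hepatocytes, and between DDC biliary cells and DDC hepatocytes 5 of the other growth factor receptors are higher and 0 lower.

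Across the 15 libraries, which share the contrast between hepatocytes and other cells and their depth, summed levels on the log2 scale correlated between members. Hbegf and Met had a Pearson r of -0.91, Hbegf and Tgfa 0.83, Tgfa and Met -0.88 and Egfr and Met 0.76. Among 13295 genes, those whose levels were most like each member's were Cuedc1 and Elf4 for Hbegf (both 0.978), Zfp512 (0.972) and Cep164 (0.966) for Areg, Tnip3 (0.942) and Rgs3 (0.925) for Ereg, and Srp9 (0.964) and Smad6 (0.958) for Tgfa. For the receptors they were Mtap (0.973) and Tnfaip6 (0.968) for Egfr, Wls (0.913) and Tmc8 (0.898) for Erbb3, Pzp (0.971) and Nsun2 (0.968) for Met, and Atp6v0a2 (0.943) and Myo18a (0.938) for Fgfr2. These values describe the 15 libraries and carry no test.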

How the data were processed

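ATAC-seq libraries (15, in 5 groups of 3) were deposited as 1 table of 93217 regions. Bowtie2, SAMtools, MACS2 and bedtools and the build mm10 are named per the submitters' processing notes; their settings and the handling of duplicate reads remain not given in the sources used here. Values deposited as TPM by the authors are in fact RPM, reads in a region scaled to the library's reads in all regions, since 100% of low values in each library were whole multiples of the value of 1 read (tolerance 0.02), which gave back the reads. Among values of 1 to 20 reads, 53.6 to 82.4% per library were even; whether both reads of a pair were counted is not stated. No column was left unused. The 2 mitochondrial regions were removed and columns rescaled to 1000000.

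Regions were tied to RefSeq genes by midpoint or within 50 kb (80377 regions, 16616 of 21896 protein-coding genes). Genes and regions with a mean of at least 1 nuclear RPM (16263 and 79075) were fitted with limma 3.58.1 (trend; R 4.3.3) on log2(nuclear RPM + 1) over all 15 libraries, and p-values were adjusted by Benjamini-Hochberg within each comparison at 0.05. A fold on that scale understates the change of low regions. The fit gives each gene or region a single residual variance over all 5 groups, so its SE also reflects the spread of groups not compared. The recovered reads were also tested with edgeR 4.0.16, which called 4899 genes between reprogrammed and DDC hepatocytes, 470 between reprogrammed hepatocytes and DDC biliary cells, 2560 between DDC and untreated biliary cells, 798 between DDC and untreated hepatocytes, 4791 between the untreated cell types, 6371 between the DDC cell types and 520 for the difference of the DDC effects, and with DESeq2 1.42.0. Scripts were tested on simulated data. Other alternatives were a pseudocount of 0.5, no filter, regions in gene bodies only, the compared groups alone, thinning to equal depth, deposited values, a replicate block and leaving out each library. The members and lists were chosen with earlier results of these data known. Regions named by rule were, per gene, the one at the start site, the one with the highest mean and the one with the largest F over the groups; the Hbegf region at 11.6 kb, the Egfr regions at 8.45 and 52.0 kb, the flanking Erbb3 regions, the upstream Tgfa region and the upstream Fgfr2 region were chosen after their values were seen. Pathway genes were named from the up to 4 per list and comparison that passed with the largest change. Tables and figures were made with Python 3.11.15, pandas 2.3.3 and matplotlib 3.10.9.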

Additional observations from a re-analysis of the deposited data

Results flagged for a closer look

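The effect of DDC in biliary cells minus its effect in hepatocytes passed for 3 regions at the 8 genes and for 4 pathway genes (limma, log2 scale, SE, adjusted p). At Tgfa, the region 14.5 kb upstream of the start had -2.42 ± 0.59 (adjusted p = 0.0436) and the region 43.3 kb beyond the gene body -2.78 ± 0.59 (adjusted p = 0.0259). Untreated hepatocytes had 0 reads at both, so these fitted values depend on the pseudocount. The first averaged 14.8 nuclear RPM in DDC biliary cells against 10.6 in untreated biliary cells, and 6.76 in DDC hepatocytes and 0 in untreated hepatocytes. At Egfr, the region 8.45 kb past the start had 4.41 ± 0.84 (adjusted p = 0.0174), with 12.2 nuclear RPM in DDC biliary cells against 2.36 in untreated biliary cells, and 5.20 in DDC hepatocytes and 29.5 in untreated hepatocytes. The pathway genes were the protease inhibitor Spint1 at 1.23 ± 0.31 (adjusted p = 0.0451), the Egfr inhibitor Errfi1 at -1.30 ± 0.28 (adjusted p = 0.0222), and the transcription factors Etv5 at -1.21 ± 0.24 (adjusted p = 0.0172) and Egr1 at -0.97 ± 0.19 (adjusted p = 0.0161). Spint1 was lost with edgeR (adjusted p = 0.0565), the compared groups alone (0.0889), gene bodies only (0.876, with the sign turned to -0.31), thinning (0.489) and deposited values (0.799, at -0.11), and without any 1 of the DDC biliary or untreated biliary libraries or DDC hepatocyte library 1 or 2 (0.0795 to 0.132). Thinning to equal depth left the adjusted p of the 3 regions at 1, 0.813 and 0.59 in the same order, and that of Errfi1, Etv5 and Egr1 at 0.178, 0.177 and 0.244. Leaving out DDC biliary library 1 or 3 gave an adjusted p of 0.125 or 0.117 at the upstream Tgfa region, 0.0812 or 0.0817 at the other Tgfa region, 0.0653 or 0.0643 at the Egfr region, 0.0767 or 0.0656 at Errfi1, 0.065 or 0.0627 at Etv5 and 0.0607 or 0.0539 at Egr1.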

How the results depend on the processing

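Hbegf was higher in reprogrammed than in DDC hepatocytes, in DDC biliary cells than in DDC hepatocytes and in untreated biliary cells than in untreated hepatocytes under each alternative run, with an adjusted p of at most 0.00851, 0.00371 and 0.00341. Counts below are of members or of their regions, and the cause of each change was not tested.

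Of regions, 31 passed between DDC biliary cells and DDC hepatocytes, and 60 did with DESeq2, 55 with the compared groups alone, 53 with edgeR, 5 after thinning and 49 as deposited. For the difference of DDC effects 3 passed, against 7 with DESeq2, 0 with compared groups alone, 6 with edgeR, 0 after thinning and 19 as deposited. For DDC against untreated biliary cells 4 passed, against 18 with DESeq2, 19 with compared groups alone, 12 with edgeR, 2 with a pseudocount of 0.5, 0 after thinning, 11 as deposited and 2 with the replicate block. For DDC against untreated hepatocytes 13 passed, against 5 with DESeq2, 0 with compared groups alone, 0 after thinning and 37 as deposited. Between reprogrammed and DDC hepatocytes 16 passed, against 41 with DESeq2, 34 with compared groups alone, 36 with edgeR, 2 after thinning and 35 as deposited. Between reprogrammed hepatocytes and DDC biliary cells 0 passed, against 3 with DESeq2, 3 with compared groups alone and 2 with edgeR. Between the untreated cell types 41 passed, against 17 with compared groups alone and 4 after thinning. In each of these cases the count over all regions moved in the same direction. Between DDC and untreated hepatocytes 9598 of all regions passed, against 2359 with DESeq2, 0 with compared groups alone, 211 after thinning and 33748 as deposited.

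Of members, 0 passed for the difference of DDC effects, against 1 with DESeq2, 1 with edgeR, 5 as deposited and 1 with the replicate block. DDC against untreated biliary cells had 0, against 1 with DESeq2 and 2 with compared groups alone, and between reprogrammed hepatocytes and DDC biliary cells 0, against 1 with each of these. Between reprogrammed and DDC hepatocytes 1 passed, against 3 with DESeq2, 3 with edgeR, 2 with compared groups alone and 2 as deposited. Between DDC and untreated hepatocytes 3 passed, against 0 with compared groups alone, 1 with edgeR, 0 after thinning and 7 as deposited. Between the untreated cell types 6 passed, against 3 with compared groups alone and 2 after thinning, and between the DDC cell types 4, against 2 in gene bodies only and 2 after thinning. Here too the count over all genes moved in the same direction each time. For DDC against untreated hepatocytes 2207 of all genes passed, against 1 with compared groups alone, 798 with edgeR, 185 after thinning and 13587 as deposited. Deviations of same-numbered libraries from their group means correlated at -0.20 to 0.24. The range was -0.012 to 0.243 among groups of DDC mice and -0.199 to 0.088 where an untreated group took part. Differently numbered libraries were not compared, so whether the numbers pair samples cannot be told from these values. The replicate block moved no other count of members or of their regions by over 1.5 times. With the block the Hbegf sum passed between DDC and untreated hepatocytes (adjusted p = 0.0416), and the Hbegf region at 11.6 kb no longer did between DDC and untreated biliary cells (0.0584).

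Leaving out 1 library gave 2 to 4 members between the DDC cell types, 0 to 2 for the difference of DDC effects, 0 between DDC and untreated biliary cells, 0 to 4 between DDC and untreated hepatocytes, 0 between reprogrammed hepatocytes and DDC biliary cells, 1 between reprogrammed and DDC hepatocytes and 5 to 7 between the untreated cell types; of regions it gave 15 to 26, 0 to 12, 0 to 2, 5 to 29, 0, 4 to 13 and 31 to 54 in the same order.

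Among values of the 8 genes that passed in neither fit, 44 of 888 changed sign, 16 of them when 1 library was left out, 9 after thinning, 7 as deposited, 6 in gene bodies only, 3 with edgeR and 3 with DESeq2. Of the other turned signs, most came with the deposited scale. Between DDC and untreated hepatocytes it gave Egfr 0.69, its start-site region 0.65, Met 1.24, its start-site region 1.41, the Met region at 77.8 kb 1.30, Nrg3 0.045 and Spint1 0.78 (1.11 in the gene body only). Between untreated biliary cells and untreated hepatocytes it gave Egfr 0.39, its start-site region 0.77, Met 1.24, Fgf1 0.90, Fgf21 0.50, Hpn 1.46, Klb 0.20, Lrig3 0.47 and Nrg1 1.24. Between the DDC cell types it gave Met 0.015, and Sos1 was 0.079 after thinning. For the difference of DDC effects it gave Met -1.22 and Spint1 -0.11 (-0.31 in the gene body only).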
